A study of Mus musculus with 7 samples.

Results

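The genes described here are 38 genes of fatty acid oxidation and of the response to PPARA, picked by symbol out of 24328 gene symbols measured in mouse kidney. All 38 were found once in the data, and all 38 passed the minimum of a mean of 5 normalized counts over the mice, as did 17283 genes in all. RNA was sequenced from kidneys of 3 LBR-null mice (4001, 4002 and 4007, genotype Lbric-J/ic-J) and of 1 WT littermate (4009, Lbr+/+), all labelled C57BL/6J, 4 weeks old and kept on a standard chow. The ic-J allele is a loss-of-function allele of Lbr, the gene of the lamin B receptor, which tethers heterochromatin to the inner nuclear membrane. This allele is present in every cell of the LBR-null mice. There were 2 libraries for each of mice 4001, 4007 and 4009 and 1 library for mouse 4002. The study asked whether a disturbed nuclear periphery changes expression of genes with and without CpG islands at their promoters, and the comparison made here is LBR-null against WT.

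Fatty acids enter a cell, are joined to coenzyme A, cross into mitochondria as carnitine esters and are shortened there in a repeating spiral of oxidation, hydration, oxidation and cleavage. Very long and branched chains are shortened first in peroxisomes. The proximal tubule of the kidney reabsorbs most of the filtrate and is known to rely on fatty acids as fuel. PPARA is a nuclear receptor that is activated by fatty acids, pairs with RXR and raises many of these genes, above all in fasting, and PPARGC1A is a coactivator that works with it and promotes mitochondrial growth.

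Some libraries stand apart and bear on what follows. Mouse 4001 carried muscle transcripts, above all cardiac ones. Myh6, the heart myosin heavy chain, was at 37297 and 26380.4 normalized counts in its libraries and at 210 to 716 in the other 5. Actc1, cardiac actin, was at 8837 and 7858 against 21.7 to 164. Of the other muscle markers, Ckm (622 and 536 against 4.52 to 33.9), Myl1 (428 and 341 against 3.65 to 12.9) and Acta1 (196 and 186 against 0.905 to 10.2) were also higher in mouse 4001, while Myh1 and Myh4, fast skeletal myosins, were at 26.1 or less in every library. The summed level of the 9 markers was 41382 in mouse 4001, 664 and 884 in mice 4002 and 4007 and 551 in WT. Heart muscle also expresses fatty acid oxidation enzymes, so the counts of members by size, overlap and adjusted p are also given without mouse 4001, and the part of these transcripts in the results was not tested. The labels give no sex. Xist was at 5785 in mouse 4001 and 9940.2 in mouse 4007 but at 65.3 in mouse 4002 and 35.5 in WT, while the Y-linked Ddx3y had counts of 141 and 44.3 in mice 4001 and 4007, 1516 in mouse 4002 and 1284 in WT, so only mouse 4002 was like the WT mouse in both, and mouse 4001 held both transcripts. Mouse 4002 was also the LBR-null mouse nearest to WT for several members below, and the part of sex in this was not tested. Lbr itself was at 378 ± 81.8 (SD, n = 3 mice) in LBR-null and 398 in WT, so its RNA does not separate the genotypes. The 24 proximal tubule markers summed to 481637, 415363 and 283945 in mice 4001, 4002 and 4007 and to 676309 in WT, and 16 of them were lower in every LBR-null library, while 5 (Slc6a19, Pck1, G6pc, Slc5a12 and Aqp1) were higher in every one, by 1.62-fold to 5.69-fold on average. Fewer tubule cells and less RNA per cell cannot be told apart in such bulk samples. The 10 liver markers summed to 38923, 17878 and 21722 in mice 4001, 4002 and 4007 and 11257 in WT, with Alb at 8759 in mouse 4001 against 2245, 1546 and 1565 in the others. In the adipocyte list 7 of 9 adipocyte markers were lower in every LBR-null library, with Ucp1 at 7.45 to 54.0 against 376 and 374. Fabp4 and Lep overlapped WT, at 1.29 and 0.641 times it on average. The list summed to 7980, 6737 and 5264 in mice 4001, 4002 and 4007 and to 7144 in WT. Neutrophil markers were higher in every LBR-null library for 6 of 7, and their sum was 1091, 396 and 2542 in mice 4001, 4002 and 4007 against 80.6 in WT. Macrophage markers (7 of 9) and podocyte markers (4 of 5) were lower in every LBR-null library. By the same rule 25.5% of all genes were higher and 25.7% lower. The part of these lists in the results was not tested either.

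The 38 genes did not share a direction. On average 8 were at least 2-fold above WT, led by Pdk4 (12.1-fold) and Angptl4 (7.41-fold), with Acsl1, Acot1, Ppara, Eci2, Ppargc1a and Ehhadh between 2.07-fold and 3.29-fold. In 7 of these every LBR-null library lay above both WT libraries, as for 11 members in all and 25.5% of all genes, and Ehhadh overlapped WT. Another 8 (21.1% of the 38, against 25.7% of all genes) lay below WT in every LBR-null library, led by the peroxisomal thiolase Acaa1b (0.313 of WT) and followed by Acox2, Acads, Bdh1, Hadh, Cpt2, Decr1 and Etfb. Both sets were chosen by these values. Genes listed under the same role stood in both, as with Eci2 against Decr1 among the enzymes for unsaturated fatty acids. So did Pdk4 and Angptl4 against Bdh1, which share only a mixed list of ketone and fasting-response targets.

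**Figure D1:**
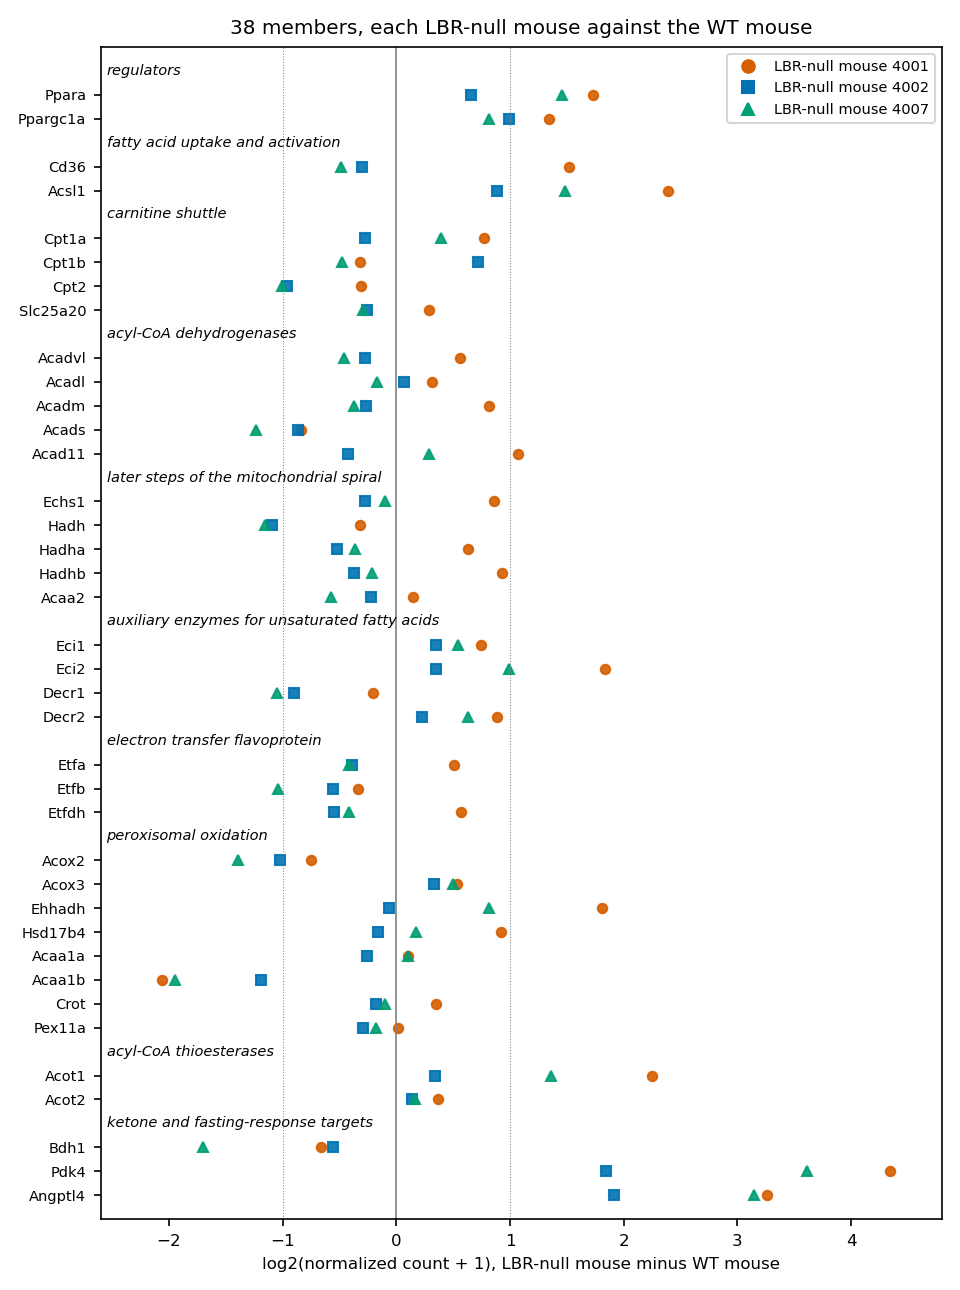
Difference of log2(normalized count + 1) between each LBR-null mouse and the WT mouse (horizontal axis) for the 38 genes, ordered by role. Circles, squares and triangles are mice 4001, 4002 and 4007, dotted lines mark a 2-fold difference, and the circle of mouse 4001 lies farthest to the right for 35 genes.

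None of the 38 passed the main test, and 6 passed an alternative test with all mice. The main test was limma on log2(normalized count + 1) of mouse means, with Benjamini-Hochberg adjustment over all 17283 genes. It called 0 members and 0 of all genes (0.0%) at an adjusted p of 0.05. The lowest adjusted p of a member in limma was 0.101 (Angptl4), and the lowest of any gene was 0.0533. At an unadjusted p of 0.05, 5 members were higher, where 10.7% of all genes were, and 3 were lower, where 8.05% were. The edgeR quasi-likelihood test on the recovered reads called 0 members, beside 0.00579% of all genes higher and 0.156% lower, and at an unadjusted p of 0.05 it had 5 members higher (10.3% of all genes) and 3 lower (8.88%). DESeq2 on the same reads called Ppargc1a, Acsl1, Pdk4 and Angptl4 higher (4 of 38, with 3.22% of all genes called higher) and Acads and Acaa1b lower (2 of 38, with 3.51% of all genes called lower). With 3 mice against 1 an exact permutation test on a single value cannot go below p = 0.25, and limma, edgeR and DESeq2 all take the spread of the lone WT mouse from the LBR-null mice.

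Counted by size, 8 members were at least 2-fold up on average, or 21.1% of the 38, where 14.5% of all tested genes were, and 2 (Acox2 and Acaa1b) were at least 2-fold down, or 5.26%, where 7.04% of all genes were. Pdk4 and Angptl4 were 2-fold up in all 3 LBR-null mice (2 of 38, where 1484 of the 17283 tested genes were). Acaa1b was 2-fold down in all 3 (1 of 38, where 694 of the 17283 were). Every LBR-null library was above both WT libraries for 11 members, or 28.9%, close to the 25.5% of all genes, and below both for 8, or 21.1%, against 25.7% of all genes. The median log2 difference of the 38 was 0.07 in limma, and that of all tested genes was 0.01.

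Without mouse 4001 the balance changed. Ppargc1a, Eci2, Ehhadh and Acot1 were then under 2-fold, which left Ppara, Acsl1, Pdk4 and Angptl4 as 4 members up (13.6% of all genes), while Acads, Hadh, Acox2, Acaa1b and Bdh1 made 5 members down (7.47% of all genes). The 11 members with every library above WT were the same genes (35.8% of all genes), and those below WT grew from 8 to 20, or 52.6%, against 35.1% of all genes. The median log2 difference of the members was then -0.17. On the 2 remaining mice limma called Angptl4 higher (2.76% of all genes) and Cpt2, Acads, Hadh, Decr1, Acox2 and Acaa1b lower (6 of 38, with 3.71% of all genes). DESeq2 without this mouse called 3 members higher (Ppara, Ppargc1a and Acsl1, with 3.59% of the 16277 genes to which it gave an adjusted p) and the same 6 lower (5.22%). Pdk4 and Angptl4, which DESeq2 called with all mice, were not among them. Without this mouse edgeR called both (2 members higher, with 2.86% of all genes) and the same 6 lower (4.89%). Without mouse 4002 limma called Ppara, Acot1, Pdk4 and Angptl4 higher (2.29% of all genes) and Acaa1b lower (1.85%), and without mouse 4007 it called no gene higher (0.0%) or lower (0.0%). Without mouse 4002 DESeq2 called 7 members higher (2.92% of 15942 genes with an adjusted p) and 1 lower (3.35%), and edgeR called 2 higher (0.654% of all genes) and 1 lower (1.31%). Without mouse 4007 DESeq2 called 2 members higher (0.762% of 15607 genes with an adjusted p) and 0 lower (1.09%), and edgeR called 0 higher (0.00579% of all genes) and 0 lower (0.243%). Each of these fits rests on 1 residual degree of freedom, which the fit across all genes adds to.

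Mouse by mouse, the 38 genes set mouse 4001 apart from the other LBR-null mice. Mouse 4001 was the highest LBR-null mouse for 35 of 38 members, where it was highest for 40.5% of all genes, mouse 4002 for 3 (Cpt1b, Acaa1b and Bdh1, with 34.0% of all genes) and mouse 4007 for 0 (25.5%). It was the lowest for 1 member (38.4% of all genes), while mouse 4002 was lowest for 21 (34.9%) and mouse 4007 for 16 (26.7%). Against the same WT mouse, the members had median log2 differences of 0.57 (mouse 4001), -0.26 (mouse 4002) and -0.17 (mouse 4007). At the 2-fold limit, 10 members were up in mouse 4001 (15.8% of all genes), 2 in mouse 4002 (11.8%) and 5 in mouse 4007 (15.0%), and 1 was down in mouse 4001 (10.8%), 3 in mouse 4002 (7.21%) and 8 in mouse 4007 (9.52%). Both libraries of a mouse gave nearly the same values. The median absolute log2 difference over the members was 0.15 between those of mouse 4001, 0.05 in mouse 4007 and 0.03 in WT. It was 0.86 between mice 4001 and 4002, 0.71 between mice 4001 and 4007 and 0.29 between mice 4002 and 4007. Over all tested genes these pairs had 0.41, 0.34 and 0.24. Against WT the members had 0.75, 0.36 and 0.52 in mice 4001, 4002 and 4007.

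**Figure D2:**
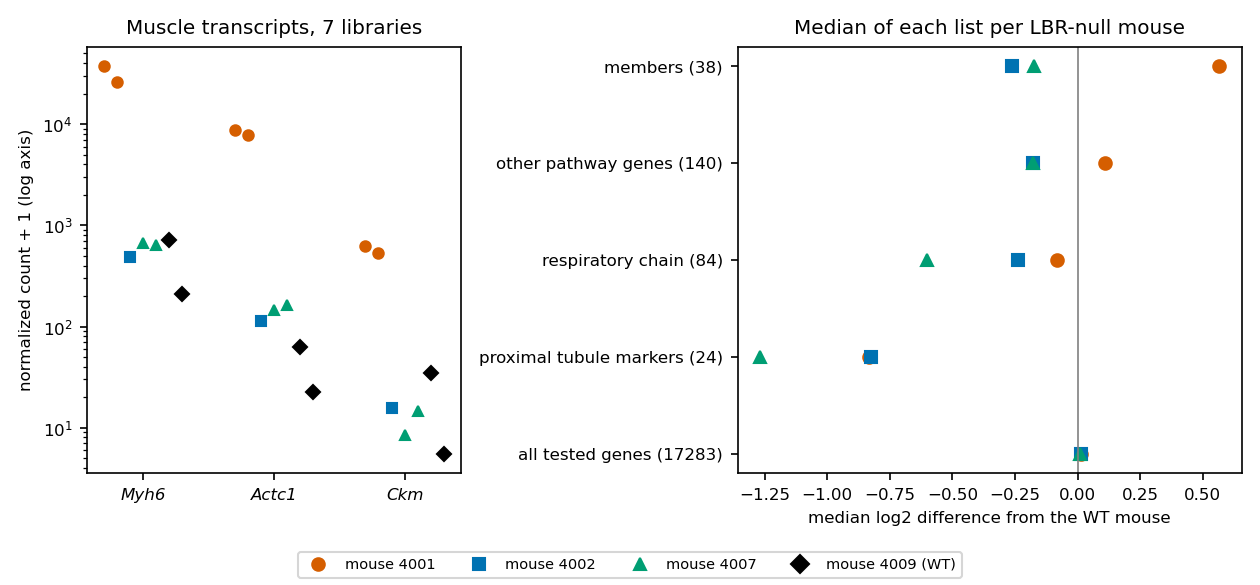
Left, normalized count plus 1 of 3 muscle genes in the 7 libraries (log axis); right, the median log2 difference from the WT mouse of each gene list in each LBR-null mouse, with the number of tested genes. Mouse 4001 holds the muscle transcripts and is the only mouse with a positive median for the 38 members (0.57) and for the other genes of the pathway (0.11).

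Pdk4 and Angptl4 had the largest differences of all members. Pdk4, a kinase that shuts off pyruvate dehydrogenase and so spares glucose, was at 7355 and 7679.5 normalized counts in mouse 4001, 1329 in mouse 4002, and 4568 and 4487 in mouse 4007, and at 386 and 353 in WT. The groups did not overlap, and mouse 4002 was the closest to WT. Pdk4 was at 20.4, 3.60 and 12.3 times WT in mice 4001, 4002 and 4007. Without mouse 4001 its limma log2 difference was 2.73, against 3.27 with all mice. The mean was 4458 ± 3094 (SD, n = 3 mice) against 369, a limma log2 difference of 3.27 (SE 0.86, adjusted p = 0.128 in limma, 7.71e-05 in DESeq2). Angptl4, a secreted inhibitor of lipoprotein lipase, was at 10843 and 9675 in mouse 4001, 4032 in mouse 4002, 9345 and 9573 in mouse 4007, and 1100.1 and 1038 in WT. Here mouse 4007 was nearly as high as mouse 4001. The mean of 7917 ± 3388 gave a limma log2 difference of 2.77 (SE 0.54, adjusted p = 0.101 in limma, 6.39e-06 in DESeq2), and leaving out mouse 4001, 4002 or 4007 gave differences of 2.53, 3.20 and 2.59 with adjusted p values in limma of 0.0323, 0.00307 and 0.211. Bdh1, which interconverts the ketone bodies in mitochondria, was lower, at 2457, 2171, 2491, 1111 and 1138 in the libraries of mice 4001, 4002 and 4007 against 3694 and 3639 in WT. Its difference was largest in mouse 4007 (log2 -1.70) and did not pass (limma adjusted p = 0.329).

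**Figure D3:**
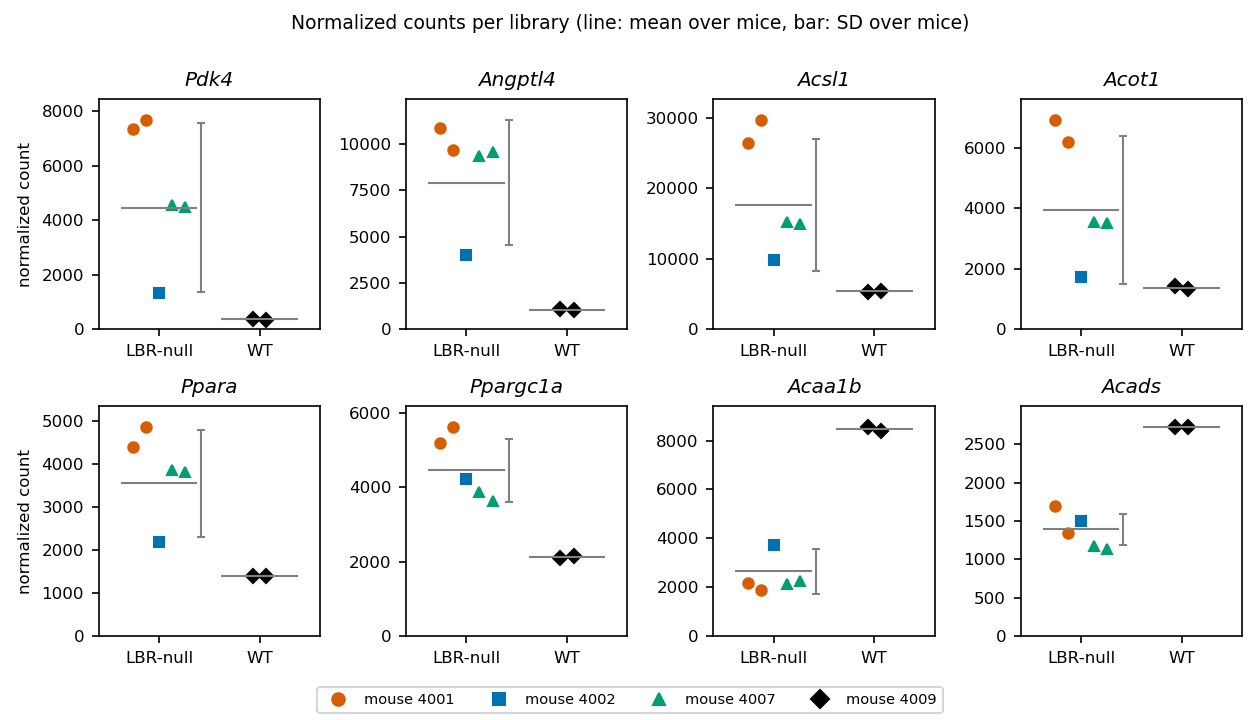
Normalized counts of 8 members in each library (linear axis from 0); lines are means over mice and bars the SD over the 3 LBR-null mice, and WT has 1 mouse and so no bar. The 5 LBR-null libraries lie above both WT libraries for the first 6 genes and below both for Acaa1b and Acads.

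The regulators were both higher in all LBR-null libraries. Ppara, the receptor, was at 4402 and 4874 in mouse 4001, 2200.2 in mouse 4002, 3866 and 3831 in mouse 4007 and 1397 in each WT library, and its mean of 3562 ± 1244 was 2.55 times that of WT. Mouse 4002 was again the closest to WT, and the limma log2 difference was 1.28 (95% interval 0.24 to 2.32, adjusted p = 0.186). Ppargc1a, the coactivator, was at 5181, 5625, 4236, 3873 and 3639 in the LBR-null libraries and 2108 and 2161 in WT. Among the members over 2-fold higher it differed least between mice, at 2.53, 1.98 and 1.76 times WT in mice 4001, 4002 and 4007, and DESeq2 called it (adjusted p = 0.0368, limma 0.140). Rxra, the partner of PPARA and not a member, was 1.57 times WT on average with no overlap (limma adjusted p = 0.390).

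In uptake and activation, Acsl1, the main long-chain acyl-CoA synthetase, was at 26496 and 29744 in mouse 4001, 9908 in mouse 4002, 15182 and 14962 in mouse 4007, and 5340.0 and 5419 in WT. No LBR-null library was as low as WT, and the mean was 3.29-fold higher (limma log2 1.58, adjusted p = 0.213 in limma and 0.0335 in DESeq2). Cd36, a fatty acid transporter of the plasma membrane, was at 2926 and 2843 in mouse 4001 alone. It was at 672 to 812 in the libraries of mice 4002 and 4007, below the 1047 and 961 of WT, so that its average of 1.46 times WT came from 1 mouse and its limma log2 difference turned from 0.24 to -0.40 without that mouse.

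The carnitine shuttle carries long-chain acyl groups through the inner membrane. Cpt1a, its outer-membrane enzyme and the point at which malonyl-CoA controls the flux, was at 8688 and 10517 in mouse 4001, 4652 in mouse 4002 and 7452 and 7299 in mouse 4007, on both sides of the 5682 and 5566 of WT. Cpt2, the inner enzyme, was lower in every LBR-null library, at 2365, 2186, 1449, 1402 and 1415 against 2755 and 2893, a limma log2 difference of -0.76 (adjusted p = 0.294). Without mouse 4001 it was -0.98 (adjusted p = 0.0386, against 0.370 and 0.683 without mice 4002 and 4007). Slc25a20, the carnitine-acylcarnitine exchanger, was 0.957 of WT with overlapping groups. Cpt1b, the muscle form of the outer enzyme, was at 0 to 12.9 normalized counts (15 reads or fewer) in every library, including those of mouse 4001. Its gene model (mm9, chromosome 15, 89246836 to 89256294, minus strand) lies inside that of Chkb (89246836 to 89260339, same strand), and both Chkb (3 reads or fewer) and the read-through symbol ChkbCpt1b (0 reads) were also near 0. Reads in such shared exons may not have been assigned to either gene, so the low value does not show that Cpt1b is silent, and this was not tested.

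Of the 5 acyl-CoA dehydrogenases, which carry out the first oxidation and differ by chain length, the short-chain Acads stood apart. It was at 1698, 1341, 1495, 1171 and 1142 in LBR-null libraries and at 2723 and 2724 in WT, and all 3 mice lay between 0.425 and 0.558 of WT. The limma log2 difference was -0.98 (95% interval -1.62 to -0.34, adjusted p = 0.131 in limma, 0.0363 in DESeq2). The very-long-chain Acadvl (7705 ± 3123 against 7639), the long-chain Acadl (7661 ± 1268 against 7232) and the medium-chain Acadm (11041 ± 5461 against 9834) had overlapping groups and limma log2 differences between -0.06 and 0.07. Their intervals were wide, from -1.18 to 1.30 for Acadm. Acad11, which acts on longer chains and hydroxy acids, was at 3865, 1366 and 2239.6 in mice 4001, 4002 and 4007 and 1835 in WT.

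Later in the spiral, Hadh, the 3-hydroxyacyl-CoA dehydrogenase of shorter chains, was lower in all LBR-null libraries, at 6759.7, 6170.1, 3795, 3608 and 3671 against 8102 and 8078. Mouse 4001 was the closest to WT, and the limma log2 difference was -0.86 with all mice (adjusted p = 0.306) and -1.12 without mouse 4001 (adjusted p = 0.0392, against 0.386 and 0.689 without mice 4002 and 4007). Echs1, the hydratase of shorter chains, was at 9237, 4217 and 4754 in the 3 mice and 5106 in WT. Acaa2, the mitochondrial thiolase, was at 9942, 7669 and 6021 against 8957. For both, mouse 4001 was above WT and mice 4002 and 4007 below it.

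Hadha and Hadhb encode the subunits of the trifunctional protein, which performs the last 3 steps for long chains, and their differences were alike. Hadha was at 10194, 4577 and 5089 in mice 4001, 4002 and 4007 and 6566 in WT, and Hadhb at 8092, 3285 and 3669 against 4260.4. The log2 ratio of Hadha to Hadhb was 0.33, 0.48 and 0.47 in the LBR-null mice and 0.62 in WT, so it was lower in each. Its spread was far smaller than that of either gene. The genes lie head to head on chromosome 5, with RefSeq starts 273 bases apart (GRCm38.p6, 30154980 on the minus strand for Hadha, 30155253 on the plus strand for Hadhb). The 250 bases before the start of Hadhb, which lie between both starts, are shown because both genes share them. They are at chr5:30155003-30155252 of GRCm38.p6 (RefSeq), plus strand, 5′ to 3′, with the 17 CpG pairs in capitals.
Hadhb and Hadha: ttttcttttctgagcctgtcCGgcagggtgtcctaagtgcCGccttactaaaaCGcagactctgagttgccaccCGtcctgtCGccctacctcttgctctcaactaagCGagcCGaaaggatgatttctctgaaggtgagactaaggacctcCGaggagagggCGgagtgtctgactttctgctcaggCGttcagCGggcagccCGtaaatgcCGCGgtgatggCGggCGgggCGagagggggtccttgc

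The enzymes that prepare unsaturated fatty acids for the spiral lay on both sides of WT. The isomerases Eci1 and Eci2 and the peroxisomal reductase Decr2 were higher in every LBR-null library, and the mitochondrial reductase Decr1 was lower in every one. Eci2 differed most, at 9141 and 7977 in mouse 4001, 3049.7 in mouse 4002 and 4695 and 4843 in mouse 4007 against 2364 and 2429.9, or 2.28-fold (limma log2 1.06, adjusted p = 0.355). Without mouse 4001 it was no longer 2-fold. Eci1 was 1.47-fold and Decr2 1.52-fold higher, with adjusted p values in limma of 0.339 and 0.371. Decr1 was at 4405, 3632, 2476, 2192 and 2286 against 4501 and 4770.2, a limma log2 difference of -0.72 with all mice and -0.98 without mouse 4001 (adjusted p = 0.361 and 0.0450, against 0.444 and 0.760 without mice 4002 and 4007).

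The electron transfer flavoprotein passes electrons from the dehydrogenases to the respiratory chain. Etfb was lower in all LBR-null libraries, at 10123, 7222, 7456, 5206 and 5492 against 10945 and 11034. Etfa was at 10308, 5517 and 5426 in mice 4001, 4002 and 4007 and 7243 in WT, on both sides of it. The log2 ratio of Etfa to Etfb was 0.25, -0.43 and 0.02 in the 3 mice and -0.60 in WT, so it was higher in each. Etfdh, the oxidoreductase that hands the electrons to ubiquinone, followed Etfa, at 4319, 1998 and 2177 against 2915. Genes of the respiratory chain and ATP synthase, taken by the start of their symbols, were compared as the next step of the same path. Such a pattern can also take in assembly factors and can miss subunits. The list had a median log2 difference of -0.32 over 84 tested genes. Of them 33 were lower and 3 higher in every LBR-null library (25.7% and 25.5% of all genes). They had 0 calls in limma (3 lower at an unadjusted p of 0.05, where 8.05% of all genes were) and 1 lower in DESeq2 (3.51% of all genes). Without mouse 4001, 68 of the 84 were lower in every library (35.1% of all genes).

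The peroxisomal genes also lay on both sides of WT. Ehhadh, the bifunctional enzyme, was at 13507 and 14382 in mouse 4001, 7207 and 6769 in mouse 4007, but 3811 in mouse 4002, just under the 3993 and 3974 of WT. Its average of 2.07-fold thus did not hold in each mouse (limma adjusted p = 0.533). Acox3, an oxidase of branched chains, was higher in every LBR-null library with little spread, at 1984 to 2343 against 1584 and 1570.5. Acox2, the oxidase of bile acid intermediates, was lower, at 1567, 1511, 1269.9, 988 and 987 against 2533 and 2646, or 0.489 of WT (limma log2 -1.06, adjusted p = 0.146, and -1.21 with adjusted p = 0.0351 without mouse 4001, against 0.133 and 0.448 without mice 4002 and 4007). Hsd17b4, the other bifunctional enzyme, and Crot, which makes carnitine esters for export, had overlapping groups at 1.30 and 1.03 times WT. Pex11a, a factor of peroxisome division and a known PPARA target, was at 249 to 379.8 normalized counts against 313 and 310.3, and did not separate the groups.

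Acaa1a and Acaa1b, near-identical peroxisomal thiolases that cleave the last bond of each cycle, differed from each other in their change. Acaa1b was at 2176 and 1891 in mouse 4001, 3717 in mouse 4002, 2146 and 2264 in mouse 4007, and 8556 and 8409 in WT. It is the one member at least 2-fold lower in each mouse, where 694 of the 17283 tested genes were. Mouse 4002 was the closest to WT (limma log2 -1.73, 95% interval -2.66 to -0.80, adjusted p = 0.114, 0.00382 in DESeq2). Acaa1a was at 4127, 3181, 2841, 3542 and 3747 against 3418 and 3383, a limma log2 difference of -0.02. Summed, the pair was at 6031.5 ± 463 in LBR-null mice and 11883 in WT, 0.508 of it. Their coding sequences are 96.5% identical over 1275 bases, and 38.1% of the 50-base stretches of one occur unchanged in the other, so some reads of one could be given to the other or dropped. Acaa1a overlaps Myd88 and Acaa1b overlaps Dlec1 on the other strand in the gene models. The upstream sequences are much less alike, with 63.4% identity over aligned bases, and are shown because the difference from WT was large for one gene and near 0 for the other. Both are on chromosome 9 of GRCm38.p6 (RefSeq), at chr9:119341044-119341293 on the plus strand and chr9:119157094-119157343 on the minus strand, 5′ to 3′, each the 250 bases before the start, with CpG pairs in capitals (10 in Acaa1a, 2 in Acaa1b).
Acaa1a: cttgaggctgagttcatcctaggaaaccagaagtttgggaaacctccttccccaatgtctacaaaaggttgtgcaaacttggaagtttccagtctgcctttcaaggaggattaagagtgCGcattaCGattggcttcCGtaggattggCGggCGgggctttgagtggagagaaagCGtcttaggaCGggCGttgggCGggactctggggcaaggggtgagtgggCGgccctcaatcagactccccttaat
Acaa1b: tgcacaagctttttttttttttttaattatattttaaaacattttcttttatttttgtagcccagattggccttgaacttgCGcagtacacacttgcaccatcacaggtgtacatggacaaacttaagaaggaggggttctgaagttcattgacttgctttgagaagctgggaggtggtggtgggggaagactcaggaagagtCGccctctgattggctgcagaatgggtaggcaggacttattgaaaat

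The thioesterases Acot1 and Acot2, which split acyl-CoA in the cytosol and in mitochondria respectively and are neighbours on chromosome 12, were both higher in every LBR-null library but by unlike amounts. Acot1 was at 6922 and 6206 in mouse 4001, 1739 in mouse 4002, 3557 and 3528 in mouse 4007, and 1421 and 1331 in WT. Mouse 4002 was barely above WT. The mean was 2.87-fold higher (limma log2 1.32, adjusted p = 0.347). Leaving out mouse 4001, 4002 or 4007 gave adjusted p values in limma of 0.210, 0.0487 and 0.586. Acot2 was at 1140.2, 1126, 969, 1025 and 947 against 865 and 897, or 1.17-fold (adjusted p = 0.667 in limma). The log2 ratio of Acot1 to Acot2 was 2.53, 0.84 and 1.84 in the 3 mice and 0.64 in WT. These coding sequences are 95.5% identical over aligned bases, with 43.5% of 50-base stretches shared, so the split of reads is again uncertain. Their sum was 4978 ± 2525 against 2257. The upstream 250 bases, 59.0% identical, are at chr12:84009252-84009501 for Acot1 and chr12:83987611-83987860 for Acot2 (GRCm38.p6, RefSeq, plus strand), 5′ to 3′ with CpG pairs in capitals (4 and 6), shown for the same reason as the thiolases.
Acot1: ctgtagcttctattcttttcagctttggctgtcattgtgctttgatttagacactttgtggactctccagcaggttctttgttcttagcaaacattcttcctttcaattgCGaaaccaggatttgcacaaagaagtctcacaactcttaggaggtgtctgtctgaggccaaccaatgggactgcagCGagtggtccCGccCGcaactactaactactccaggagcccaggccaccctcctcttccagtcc
Acot2: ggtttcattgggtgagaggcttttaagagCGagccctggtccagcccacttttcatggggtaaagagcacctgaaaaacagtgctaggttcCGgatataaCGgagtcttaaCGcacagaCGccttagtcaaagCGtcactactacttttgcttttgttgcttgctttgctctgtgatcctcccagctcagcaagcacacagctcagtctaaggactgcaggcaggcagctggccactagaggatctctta

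PPARA and RXR bind a direct repeat of 2 AGGTCA half-sites with 1 base between them, so the promoter windows of the members were searched for it. RefSeq windows of 300 bases (250 before and 50 after the start, GRCm38.p6) were at hand for 33 of the 38 members. On both strands, with at most 2 mismatches in the 12 half-site bases, 5 of these 33 members held a match, or 15.2%, and 3.87% of the 12862 tested genes with a window did. The matches, 5′ to 3′ on their own strand with the half-sites in capitals, are shown because they are what the members share with the known site. Positions count from the first transcribed base as 0, and strands are relative to the gene, the sense strand being that of its transcript.
Cd36, antisense strand, at -63: AAGTCAgAGGCCA
Echs1, sense strand, at -83: AGGTCAcGGGTCC
Etfa, antisense strand, at -77: AGGGCAaAGGTAA
Slc25a20, sense strand, at 6: AGGTGAaAGGTCG
Acox2, sense strand, at 9: AGGACAgAGGTGA
Of the 8 members that were 2-fold up, 7 had a window and none of these held a match, and Acox2 was 2-fold down. Cpt1b, Acaa2, Decr1, Hsd17b4 and Angptl4 had no window and were not searched. A match is only a likeness of letters in a short window, and sites farther away were not searched.

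The study sorts genes by CpG islands, so the same windows were also sorted by base content. With a GC content of at least 50% and an observed over expected CpG ratio above 0.6, which is not the definition of the study and was chosen after the data were seen, 13 of 33 members had a CpG-rich window (39.4%), and 61.9% of the tested genes did. Of these 13, 2 were 2-fold up (Ppara and Acsl1, 15.4%) and 0 were down, where 6.71% and 4.57% of CpG-rich tested genes were. Among the 20 others, 5 were up (25%) and 2 down (10%), where 25.4% and 11.1% of tested genes without such a window were. The median log2 difference was 0.07 in the first group and 0.14 in the second, and -0.19 and -0.16 without mouse 4001.

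Levels were compared between genes per kilobase of exon (GENCODE M1, mm9), with all annotated exons of a gene merged. The merged length was 1139 bases for Etfb and 10343 for Acox3, so ranks between genes depend on the annotation. In WT the highest were Etfb (9648 normalized counts per kb), Acaa2 (5912), Acaa1b (4323), Etfa (3947) and Acadl (3607). In LBR-null mice Etfb (6285 ± 1476) and Acaa2 (5199 ± 1299) were still the highest, with SDs that overlap, while Acaa1b moved from rank 3 to rank 16 at 1352 ± 472 per kb. Pdk4 went from 105 per kb, rank 37 of 38, to 1269.7 ± 881, rank 17, and Angptl4 from 325, rank 32, to 2409 ± 1031, rank 10. Acsl1 went from rank 25 to rank 12.

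**Figure D4:**
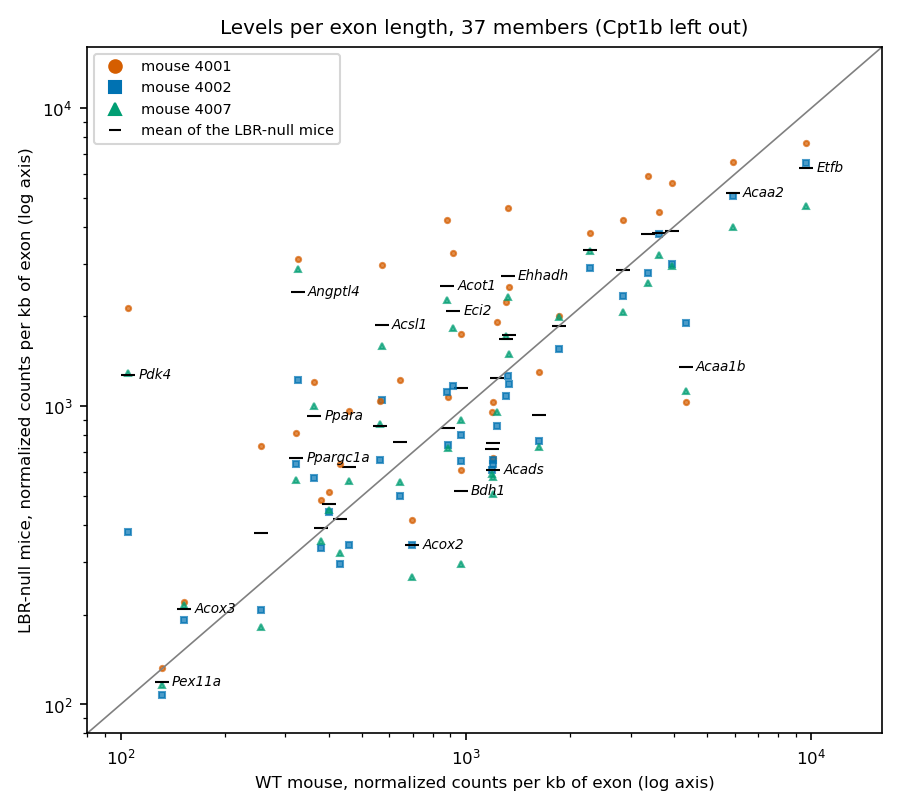
Normalized counts per kb of exon in the WT mouse (horizontal, log axis) and in each LBR-null mouse (vertical, log axis) for 37 members, with the mean of the LBR-null mice as a bar and a grey line of equality. Pdk4 and Angptl4 lie far above the line in all 3 mice and Acaa1b below it, and Etfb and Acaa2 are at the top on both axes.

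The other genes of the pathway were taken from lists of 143 symbols, of which 141 were in the data and 140 were tested. None passed limma (0 of 140, with 16 higher and 26 lower at an unadjusted p of 0.05, where 10.7% and 8.05% of all genes were), and DESeq2 called 11 higher and 14 lower (3.22% and 3.51% of all genes). Every LBR-null library was above WT for 35 and below for 50 (25.5% and 25.7% of all genes). Without mouse 4001 this held for 38 and 67 (35.8% and 35.1% of all genes), with a median log2 difference of -0.17. Known targets of PPARA lay on both sides of WT. The microsomal hydroxylases Cyp4a14 and Cyp4a10 were 5.50-fold and 3.06-fold higher (adjusted p = 0.00803 and 0.0104 in DESeq2, 0.211 and 0.160 in limma). Cyp4a14 was at 9.49, 2.09 and 4.92 times WT in mice 4001, 4002 and 4007, and its mean without mouse 4001 was 3.50-fold. Plin4, a lipid droplet coat, was 5.53-fold and Bbox1, the last enzyme of carnitine synthesis, 7.48-fold higher. By contrast Plin2, another droplet coat and a target of PPARA, was 0.422 of WT, Cidec 0.136 and Scd1 0.258, with Plin2 at 627 to 1083 against 1854 and 1837. Without mouse 4001 Cidec was at 0.0745 of WT. It is also one of the adipocyte markers, of which 7 of 9 were lower, and the part of fat tissue in its level was not tested. Acsm2, a medium-chain acyl-CoA synthetase of the proximal tubule, was at 1548 to 3120.1 against 17624 and 17896, or 0.137 of WT (limma adjusted p = 0.0800, DESeq2 1.08e-08), and the peroxisomal reductase Pecr was 0.227 of it. Among regulators Esrrb was 3.78-fold higher with little spread (3827 ± 149 against 1012), while Esrra was 0.614 and Ppard 0.627 of WT. The carnitine importer Slc22a5 was 0.869 of WT. Fabp1 was at 14.6 to 83.8 against 33.1 and 30.8, with overlap, and its mean, above WT with all mice, was 0.810 of WT without mouse 4001.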

How the data were processed

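Poly(A) RNA of right kidneys, which were flash-frozen, pulverized and aliquoted, was sequenced as 150 bp pairs (Illumina HiSeq). Whether both libraries of a mouse came from separate aliquots is not given in the sources used here. Alignment by the authors used STAR 2.6.0 and the mm9 genome. They deposited 1 signal per gene symbol and library, the read count divided by the size factor of DESeq2 1.25.1. The counting program and annotation are not given in the sources used here. Every deposited value passed a check for a whole multiple of 1 read (100% of values), so reads were recovered, 20694016 to 26333284 per library. The tolerance was 0.01 read and widened in proportion for high counts, so the check was looser there. One read was worth 0.787 to 1.15 normalized counts, and 2860 symbols had no read. A symbol at 0 need not be silent.

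Libraries were averaged within a mouse, since the mouse is the replicate. The main test was limma 3.58.1 under R 4.3.3, with eBayes and its trend option, on log2(normalized count + 1). Genes needed a mean of 5 or more. The fit has 2 residual degrees of freedom, and a fold on its scale understates the change of low genes. edgeR 4.0.16 and DESeq2 1.42.0 were run on recovered reads summed per mouse. All were tested on simulated data. Alternatives were pseudocounts of 0.5 and 5, other filters, equal totals, TMM scaling, no trend, first libraries, and each mouse or library left out. edgeR and DESeq2 without single mice, and the CpG sorting of promoter windows, were chosen after the data were seen. The members and gene lists were chosen with earlier results of these data known. Named genes are all members, Cyp4a10, Cyp4a14, Fabp1, Plin2, Rxra, Esrra and Slc22a5, and from each other list the 2 largest rises and falls without overlap between groups, of which some are printed. Some genes that the rule names are not reported here. Gene positions and exon lengths are from GENCODE M1 (mm9), and promoters from RefSeq (GRCm38.p6). The strand setting of the counts is unknown, so reads of overlapping genes may be mixed.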

Additional observations from a re-analysis of the deposited data

Results flagged for a closer look

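In 3 of the 38 members 1 of the 5 LBR-null libraries lay far from the other 4. For 5 independent values chance alone gives about 1 such case in 20 groups. Libraries of a mouse are not independent, and mouse 4002 has only 1, so that rate does not hold here. Acaa1b was at 3717 normalized counts in the library of mouse 4002 and at 1891 to 2264 in the others, still below both WT libraries. Angptl4 was at 4032 in the same library and at 9345 to 10843 in the others, still above both WT libraries. Mouse 4002 is thus the one nearer to WT for both genes, and it is also the only LBR-null mouse like WT in both Xist and Ddx3y, whose part in this was not tested. Pex11a was at 379.8 in the second library of mouse 4001 and at 249 to 282 in the others, a gap between libraries of the same mouse, whose first library was at 249.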

How the results depend on the processing

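Under pseudocounts of 0.5 and 5, other filters, equal totals, TMM scaling and no trend, limma called no member, and edgeR did not either. Across all genes DESeq2 called 1162 (1172 with the filterByExpr filter), of them 6 members under both filters, and edgeR 28 (41 with that filter). With first libraries only, 1 member was 2-fold down. The share of all genes in that setting is not given here, so nothing is read from this count. In mouse 4002 alone 2 members were 2-fold up (11.8% of all genes) and 25 lay below WT, where 44.3% of all genes did. Leaving out 1 mouse or library gave 0 to 1118 genes (0.0% to 6.47%) and 0 to 7 members called by limma, 4 to 8 members 2-fold up (13.6% to 15.5% of all genes), 1 to 5 down (6.65% to 8.47%), 8 to 20 members with every library below WT (26.3% to 35.1%), and a median member difference of -0.17 to 0.22. In DESeq2 leaving out a mouse gave 2 to 7 members higher (0.762% to 3.59% of the genes with an adjusted p) and 0 to 6 lower (1.09% to 5.22%), and in edgeR 0 to 2 higher (0.00579% to 2.86% of all genes) and 0 to 6 lower (0.243% to 4.89%). Without mouse 4007 DESeq2 called Pdk4 and Angptl4 alone.

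Direction turned for 14 members. Cpt1b was at 0.064 in DESeq2 (0.048 filtered), 0.029 in edgeR (0.014 filtered) and 0.0041 with a pseudocount of 5, Crot at -0.0071 with TMM scaling and Acaa1a at 0.019 with first libraries. Leaving out 1 mouse or library moved the log2 difference of Cpt1b between -0.94 and 0.37, Crot between -0.14 and 0.12, Acaa1a between -0.085 and 0.10, Cd36 between -0.40 and 0.61, Acadl between -0.050 and 0.19, Acadm between -0.32 and 0.28, Acad11 between -0.069 and 0.68, Echs1 between -0.19 and 0.38, Hadhb between -0.30 and 0.35, Acadvl between -0.37 and 0.14, Hadha between -0.44 and 0.13, Etfa between -0.40 and 0.058, Etfdh between -0.48 and 0.073, and Slc25a20 between -0.27 and 0.013. The other 24 members kept their direction in every limma fit and in edgeR and DESeq2 with all mice. The cause of these changes was not tested beyond the mouse left out.

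No paired analysis was possible because replicate numbers in the titles number the libraries within a mouse, and these were averaged. With 1 WT mouse the spread of WT kidneys is unknown, and the effect of depth on the calls was not tested.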
